A study of Mus musculus with 6 samples.

Results

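The set described here holds 7 genes of CC chemokine ligands. They are the rows of the deposited count table whose symbol is Ccl2, Ccl3, Ccl4, Ccl7, Ccl9, Ccl22 or Ccl24, and all 7 of these symbols were found among the 9295 genes of the table. The 6 libraries were made from RNA of bone marrow of mice with acute myeloid leukemia. Con (3 libraries) has the genotype label PAPOLA flox/flox, which denotes a Papola gene flanked by recombination sites, and KO (3 libraries) has the genotype label PAPOLA KO, which denotes a knockout of that gene. Papola encodes poly(A) polymerase alpha, which adds the poly(A) tail to new messenger RNA. The labels name no recombinase, no promoter that drives it, no oncogene or origin of the leukemia, no sort of cells, and no age or sex, and they do not tie the 3 samples of a group to separate mice. The p-values may therefore cover no more than technical spread between samples.

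CC chemokines are small secreted proteins with a pair of adjacent cysteines near the N terminus, and they draw leukocytes along gradients by binding G protein-coupled receptors of the Ccr family. In marrow they guide the exit and entry of monocytes and other myeloid cells, and several of them are released by macrophages, dendritic cells and activated myeloid cells after inflammatory signals. Each library summed to between 8875022 and 11436216 counts. Levels are given as CPM, a count scaled to the library total with TMM factors, and log2 fold changes as KO less Con.

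Papola itself was 290.8 ± 6.42 CPM in the Con libraries (SD, n = 3) and 339.2 ± 23.8 CPM in the KO libraries, so the gene's level does not check the labels, and each direction given here compares libraries labelled KO with those labelled Con. Its log2 fold change was 0.22 (edgeR quasi-likelihood test, adjusted p = 0.0291) and -0.13 with library size as the only scaling (adjusted p = 0.187). Con replicates 2 and 3 were far closer to each other (chi-square per degree of freedom 1.68 over 8300 genes) than any other pair of a group (17.7 to 23.7). No label marks which RNA came from leukemic blasts, and genes expressed in progenitors moved both ways. Kit, a receptor of progenitor cells, was at 56.4 ± 3.53 CPM in Con and 41.6 ± 4.77 CPM in KO, and Flt3, another progenitor receptor, at 9.59 ± 1.85 and 75.4 ± 31.5 CPM. Hoxa9 was at 14.3 ± 1.98 and 9.22 ± 1.75 CPM, and Mpo at 280.5 ± 11.7 and 2663 ± 368 CPM.

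All 7 ligand genes fell in the libraries labelled KO, and in each of them the 3 KO values lay below the 3 Con values. Of the 8358 genes tested, 42.4% fell, 82% changed in either direction, and 44% were lower in KO with no overlap between the groups. The 7 genes divided into a set of 4, Ccl2, Ccl7, Ccl22 and Ccl24, that fell by 198-fold to 1109-fold, and a set of 3, Ccl3, Ccl4 and Ccl9, that fell by 5.73-fold to 17.4-fold. This division was made after the values were seen. Of the 7 genes, 5 had a log2 fold change of -4 or below, a size also chosen after the values were seen, against 3.15% of all genes tested. Ccl4 lay close to this size, at -4.11, and missed it without KO replicate 1, at -3.92. The median log2 fold change of the 7 genes was -7.63, and that of all genes tested was -0.06. The 7 genes were themselves chosen with earlier results of these data known, so neither comparison with all genes tests the set. Together they summed to 5970, 7084 and 7199 CPM in the 3 Con libraries by number and to 325, 421 and 487 CPM in the KO libraries, a 16.4-fold lower mean. RNA was taken from marrow, with no sort of cells named, so fewer cells of a type and less RNA per cell cannot be told apart.

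**Figure D1:**
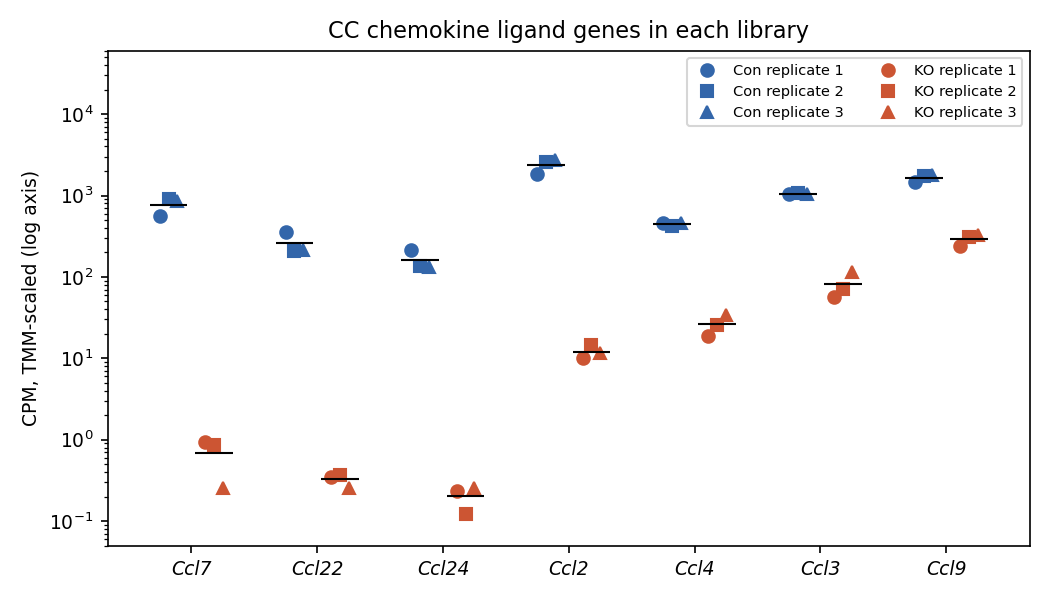
Level of each of the 7 CC chemokine ligand genes in each library, in TMM-scaled CPM on a log axis, with genes ordered from the steepest fall to the shallowest. Each symbol is 1 library and each black line the mean of 3 libraries. The Con values (blue) lie above the KO values (red) for each gene, and Ccl7, Ccl22 and Ccl24 lie below 1 CPM in every KO library.

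Ccl2 and Ccl7 encode monocyte chemoattractant proteins that bind Ccr2, the receptor by which inflammatory monocytes leave the marrow. Ccl2 (gene ID 20296) was at 1860, 2607 and 2722 CPM in Con libraries 1 to 3, and at 10.2, 14.6 and 11.6 CPM in KO libraries 1 to 3. The lowest Con library thus stood 128-fold above the highest KO library, and Con replicate 1 was the lowest of its group, at 0.698 times the mean of the other two. The log2 fold change of Ccl2 was -7.63 (SE 0.22, edgeR quasi-likelihood test, adjusted p = 6.55e-09). Ccl7 (20306) was at 565, 905 and 855 CPM in Con and at 0.935, 0.864 and 0.257 CPM in KO. The KO values of Ccl7 rest on 8, 7 and 2 counts, against 7455 to 11510 counts in a Con library. Its log2 fold change was -10.10 (SE 0.32, adjusted p = 1.91e-08), place 10 from the lowest of the genes tested, and the ratio of the summed counts was 1109 (95% interval 693 to 1905, counting error only). Con replicate 1 was again the lowest Con library for Ccl7, at 0.642 times the mean of the other two.

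The 3' untranslated regions of these genes hold the pentamer ATTTA, the core of AU-rich elements that proteins of the Zfp36 family bind to speed decay of the messenger. The stretch below was taken from the longest protein-coding GENCODE M21 transcript of Ccl2 (chr11:82037206-82037233, GRCm38, plus strand) and Ccl7 (chr11:82047255-82047282, plus strand), with the pentamer in capitals. They are shown because these are the 2 members with the most counts lost among the steep set.
Ccl2: aatattaaacttATTTAacttattgatg
Ccl7: attaatatttttATTTAattagccatgt
In the first 200 bases of the 3' untranslated region, 20.9% of 7243 genes tested hold the pentamer.

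Ccl22 and Ccl24 encode ligands of other receptors. Ccl22 attracts T helper and regulatory T cells through Ccr4 and is made by dendritic cells and macrophages, and Ccl24 attracts eosinophils through Ccr3 and is made by macrophages exposed to interleukins of type II immunity. Ccl22 (20299) was at 353, 210 and 212 CPM in Con and at 0.351, 0.370 and 0.257 CPM in KO, where it rests on 3, 3 and 2 counts. Con replicate 1 was the highest Con library here, at 1.67 times the mean of the other two, the reverse of its place for Ccl2 and Ccl7. The log2 fold change of Ccl22 was -9.57 (SE 0.37, adjusted p = 5.31e-08), with a ratio of summed counts of 794 (403 to 1840). Ccl24 (56221) was at 215, 135 and 132 CPM in Con and at 0.234, 0.123 and 0.257 CPM in KO, where it rests on 2, 1 and 2 counts. Con replicate 1 was again the highest, at 1.61 times the mean of the other two. The log2 fold change of Ccl24 was -9.54 (SE 0.38, adjusted p = 5.94e-08), with a ratio of summed counts of 791 (339 to 2436). The KO libraries could not be ranked for either gene at these counts.

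Ccl3, Ccl4 and Ccl9 encode macrophage inflammatory proteins. Ccl3 binds Ccr1 and is known to restrain the cycling of hematopoietic progenitors, Ccl4 attracts monocytes and T cells, and Ccl9 binds Ccr1 and is made by myeloid cells and osteoclasts. Ccl3 (20302) was at 1052, 1061 and 1048 CPM in Con and at 56.9, 71.3 and 115.0 CPM in KO. The highest Con library was 1.01 times the lowest, while the KO libraries spanned 2.02-fold with KO replicate 3 the highest. The log2 fold change of Ccl3 was -3.70 (SE 0.23, adjusted p = 8.45e-07). Ccl4 (20303) was at 457, 427 and 461 CPM in Con and at 18.8, 25.5 and 33.8 CPM in KO, where replicate 3 was again the highest and replicate 1 the lowest. Its log2 fold change was -4.11 (SE 0.18, adjusted p = 8.66e-08). In the RefSeq annotation the span of the Ccl4 record, introns included, overlaps that of the Ccl3 record by 755 bases. Whether the overlap holds exons of both genes was not examined, and whether the counting used strand is not given in the sources used here. Reads from any shared exon part therefore cannot be assigned with certainty. Ccl9 (20308) was at 1467, 1740 and 1767 CPM in Con and at 238, 308 and 326 CPM in KO. Of the 7 genes it kept the largest part of its Con level, and it had the smallest fall, at -2.51 on the log2 scale (SE 0.14, adjusted p = 2.01e-07).

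The pentamer ATTTA occurs 5 times in the 3' untranslated region of Ccl3, where 3 of them lie in its first 200 bases, and 2 times in that of Ccl4. It occurs 1 time in that of Ccl2, 2 times in that of Ccl7, 5 times in that of Ccl9, which is 2465 bases long, and 2 times in that of Ccl22. In Ccl24 it was not found. The longer form TATTTAT occurs 1 time each in Ccl3, Ccl4 and Ccl22 and 0 times in Ccl2, Ccl7, Ccl9 and Ccl24, and TTATTTATT occurs 0 times in all 7 regions. These counts are over whole regions of unlike length, for which no share over all genes was taken. Among 7243 genes tested, 4.06% hold TATTTAT and 0.87% hold TTATTTATT in the first 200 bases. In the first 200 bases the pentamer ATTTA was found in Ccl2, Ccl3, Ccl4 and Ccl7, and not in Ccl9, Ccl22 and Ccl24. The densest stretch of Ccl3 (chr11:83648077-83648104, GRCm38, minus strand), where 2 pentamers stand side by side, is shown with the pentamers in capitals, for comparison with Ccl2 and Ccl7.
Ccl3: ttgaaattttATTTAATTTAatcctatt
In this window the pentamer was thus found in 2 of the 4 genes with the steep falls and in 2 of the 3 genes with the shallower falls.

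Promoter sequences were looked up in a RefSeq table (build GRCm38.p6), which held an entry for Ccl3, Ccl9 and Ccl22. The 250 bases before the annotated start of each are printed because the 3 genes moved in the same direction by different amounts, with any match to 6 motifs in capitals. The motifs, searched on both strands, were the NF-kB consensus, AP-1 (TGANTCA), C/EBP (TTGCNNAA), NF-Y (CCAAT), the STAT6 consensus and a TATA box (TATAAA), and overlapping matches were all kept.
Ccl9 (chr11:83578637-83578886, minus strand): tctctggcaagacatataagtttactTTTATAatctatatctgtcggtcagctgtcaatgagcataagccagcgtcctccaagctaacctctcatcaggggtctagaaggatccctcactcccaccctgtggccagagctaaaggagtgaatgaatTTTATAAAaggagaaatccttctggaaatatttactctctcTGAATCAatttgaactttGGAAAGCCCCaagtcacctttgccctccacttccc
Ccl3 (chr11:83649379-83649628, minus strand): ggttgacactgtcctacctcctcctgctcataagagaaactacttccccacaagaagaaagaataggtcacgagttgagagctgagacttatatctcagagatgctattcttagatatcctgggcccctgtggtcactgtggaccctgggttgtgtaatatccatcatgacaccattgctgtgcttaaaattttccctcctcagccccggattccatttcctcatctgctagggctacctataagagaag
Ccl22 (chr8:94745434-94745683, plus strand): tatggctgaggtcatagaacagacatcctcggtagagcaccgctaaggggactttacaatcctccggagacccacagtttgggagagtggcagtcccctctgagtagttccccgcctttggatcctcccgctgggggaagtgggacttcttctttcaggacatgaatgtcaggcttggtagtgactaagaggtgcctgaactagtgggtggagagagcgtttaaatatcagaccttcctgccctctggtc
Ccl9, the gene with the shallowest fall, holds an NF-kB match 35 to 26 bases before its start, an AP-1 match 53 to 47 bases before it and TATA matches at 224 to 219, 94 to 89 and 92 to 87 bases, the last 2 overlapping. Neither Ccl3 nor Ccl22 holds any of the 6 motifs in this window, which says only that these letters are not there. Of 32851 promoters in the table, 7.25% hold the NF-kB consensus in a window of this length, 6.75% the AP-1 motif, 9.56% the C/EBP motif, 33.8% the NF-Y motif, 5.85% the STAT6 motif and 12.4% the TATA box. A match is a description of the letters and not a measured binding site.

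The order of the 7 genes by level changed between the groups. Divided by the length of the longest protein-coding GENCODE M21 transcript, the Con levels per kilobase ran from Ccl2 at 2948 ± 576 CPM, over Ccl3 at 1376 ± 8.36, Ccl7 at 967 ± 229, Ccl4 at 679 ± 28.6 and Ccl9 at 552 ± 55.2, to Ccl24 at 124 ± 36.5 and Ccl22 at 117 ± 37.0 CPM (SD, n = 3). Only the last pair, Ccl24 and Ccl22, had library values that overlapped between neighbours in this order. In KO the same quantity ran from Ccl3 at 106 ± 39.5 CPM per kilobase and Ccl9 at 96.6 ± 15.5, which overlapped, over Ccl4 at 39.5 ± 11.4 and Ccl2 at 14.9 ± 2.76, to Ccl7 at 0.855 ± 0.465, Ccl24 at 0.158 ± 0.0552 and Ccl22 at 0.147 ± 0.0272, the last 2 again overlapping. Ccl2 therefore went from the first place to the fourth. By level per kilobase it was above 99.9% of the genes tested in Con and above 56.6% of them in KO, whereas Ccl3 stood above 99.7% and 91.4%.

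The make-up of the summed counts of the 7 genes differed between the groups. Ccl2 supplied 31.2%, 36.8% and 37.8% of the 7 genes' summed counts in Con replicates 1, 2 and 3, and 3.13%, 3.46% and 2.38% in the KO libraries in the same order. Ccl9 supplied between 24.55% and 24.58% in every Con library and 73.1%, 73.2% and 66.9% in the KO libraries. Ccl7 went from 11.4% ± 1.71 to 0.182% ± 0.119, Ccl22 from 3.94% ± 1.71 to 0.0829% ± 0.0279 and Ccl24 from 2.45% ± 1.00 to 0.0514% ± 0.0213. The share of Ccl4 was 6.69% ± 0.854 in Con and 6.27% ± 0.606 in KO, with overlapping libraries, and that of Ccl3 was 15.7% ± 1.66 and 19.4% ± 3.70, also overlapping. These shares depend on transcript length and are compared only within a gene.

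**Figure D2:**
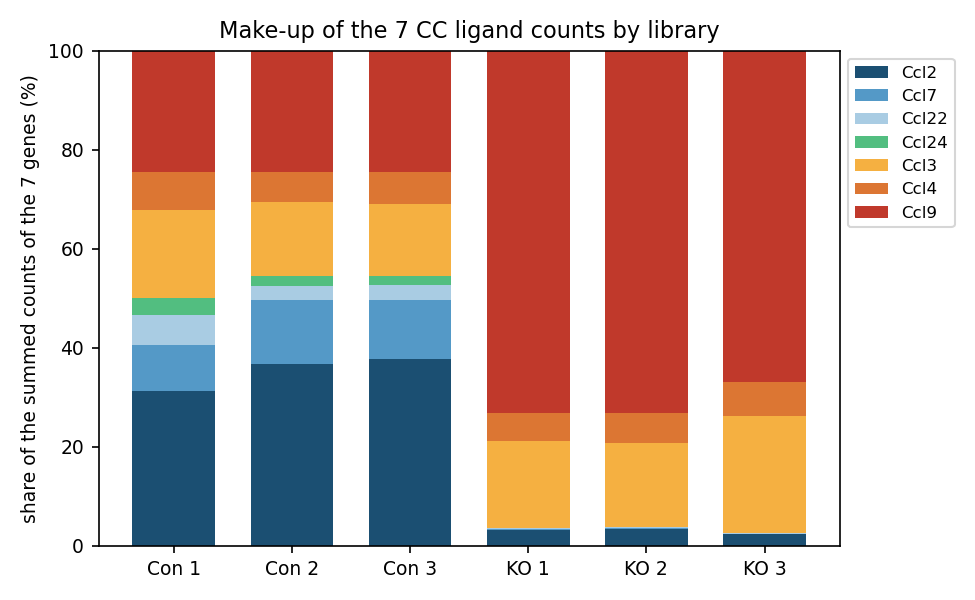
Share of each gene in the summed counts of the 7 CC chemokine ligand genes, in percent, for each of the 6 libraries. Ccl9 (red) takes about 24.6% of each Con bar and at least 66.9% of each KO bar, and Ccl2 (dark blue) goes from at least 31.2% to at most 3.46%.

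Ratios between members within a library, taken after adding 0.5 to each count, compared how far paired genes moved. The log2 ratio of Ccl7 to Ccl2 was -1.64 ± 0.10 in Con and -4.17 ± 0.92 in KO, a difference of -2.54. Its KO values rest on Ccl7 counts of 8, 7 and 2. The log2 ratio of Ccl9 to Ccl3 was 0.65 ± 0.15 and 1.89 ± 0.34 (difference 1.24), and that of Ccl3 to Ccl4 was 1.23 ± 0.07 and 1.61 ± 0.14 (difference 0.38). In these 3 pairs the groups did not overlap, and each gave p = 0.1 in the exact two-sided permutation test, the smallest value that 3 against 3 libraries allow (adjusted p = 0.133 over the 4 pairs), so none can pass 0.05. The log2 ratio of Ccl22 to Ccl24 was 0.68 ± 0.04 in Con and 0.57 ± 0.62 in KO (exact permutation p = 0.7), with overlapping libraries. Its difference of -0.11 rests on KO counts of 1 to 3 and was 0.18 without KO replicate 3.

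The other CC ligands in the table did not share 1 direction. Of 17 further ligand genes listed, 7 were in the table and 5 were tested, of which 2 fell and 2 rose. Ccl12, another ligand of Ccr2, was at 17.7, 33.4 and 40.1 CPM in Con and at 0.701, 0.247 and 0.257 CPM in KO (log2 fold change -6.17, SE 0.49, adjusted p = 3.57e-06), or -6.85 without KO replicate 1. Ccl17, which shares the receptor Ccr4 with Ccl22, had 191, 101 and 91 counts in Con and 0, 0 and 1 in KO, a 244-fold lower level (95% interval 43.4 to 9643, counting error only). Its log2 fold change of -7.55 rests on that single KO count and was -9.77 without KO replicate 3, where the KO group has no count and the fitted value depends on the prior count. In Con replicate 1 Ccl17 was at 1.90 times the mean of the other 2 Con libraries and Ccl12 at 0.481 times. Ccl22 and Ccl24 were also higher in that library, and Ccl2 and Ccl7 lower. These shifts rest on 1 library set against 2 that were far closer to each other. Genes other than ligands shifted there too, both ways, as Gzmb (1.68 times) and Gpnmb (0.629 times). Ccl5, a chemokine made by T cells, NK cells and activated macrophages, rose from 36.2, 31.8 and 33.9 CPM to 77.7, 115 and 84.8 CPM (1.45, SE 0.15, adjusted p = 1.09e-05). Ccl27a rose by 1.26 from a level of 1.33 ± 0.280 CPM. Ccl8 was at 7.88, 11.8 and 11.4 CPM in Con and at 9.93, 22.0 and 7.98 CPM in KO, with overlapping libraries (0.36, SE 0.35, adjusted p = 0.359). Ccl1 had 8, 2 and 3 counts in Con and none in KO, at least 2.76-fold lower when the KO group is set to the floor of 3 counts. Ccl19, which guides cells with Ccr7, had 3 counts over Con and 28 over KO, 14.7-fold higher (4.53 to 75.4).

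**Figure D3:**
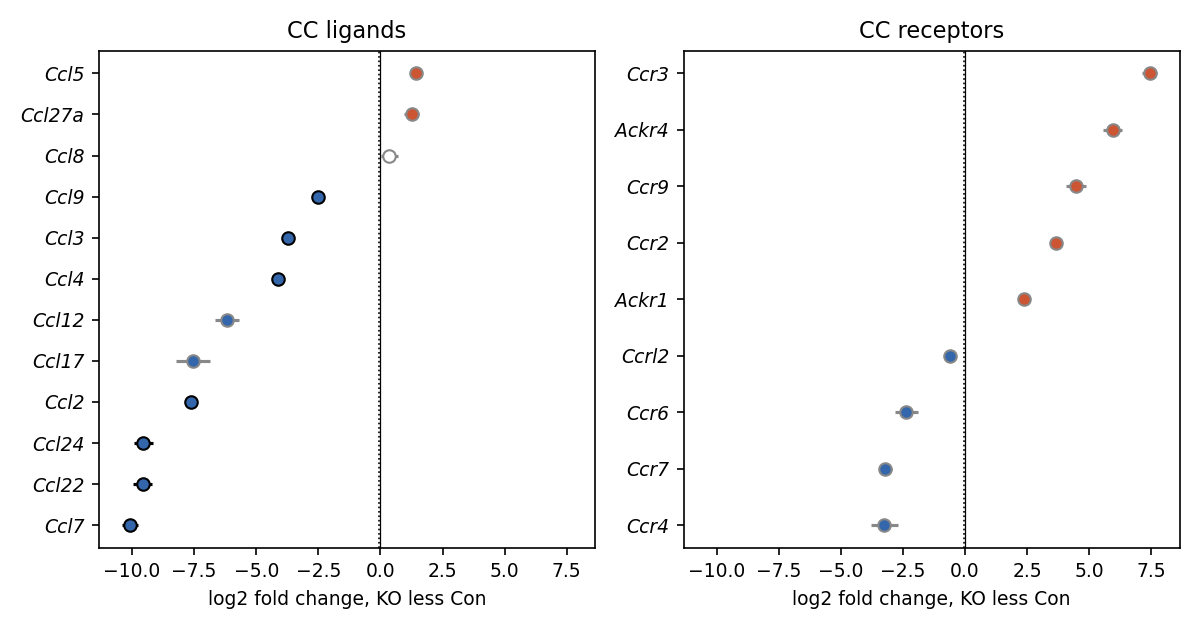
Log2 fold change, KO less Con, of the tested CC ligand genes (left) and CC receptor genes (right), with bars for the standard error. Points are blue where lower, red where higher and white where the adjusted p was 0.05 or above, and black outlines mark the 7 genes. The dotted line is the median of all genes tested, -0.06. The 7 genes lie between -10.10 and -2.51, and the receptors lie on both sides of 0.

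The receptors moved both ways. Of 9 CC receptor genes tested and reported, 5 rose and 4 fell, beside 39.6% and 42.4% of all genes tested, and the libraries of the groups did not overlap in any of them, against 84.5% of all genes tested. Ccr2, the receptor of Ccl2, Ccl7 and Ccl12, rose from 24.8, 27.4 and 26.0 CPM to 317, 305 and 366 CPM (log2 fold change 3.66, SE 0.10, adjusted p = 5.66e-09) while its 3 ligands fell. Ccr3, the eosinophil receptor of Ccl24, rose from 0.530, 0.472 and 0.320 CPM to 56.1, 94.2 and 85.2 CPM (7.43, SE 0.30, adjusted p = 5.1e-08). Ccr4, the receptor of Ccl22 and Ccl17, fell from 2.43 ± 1.02 to 0.244 ± 0.114 CPM (-3.25, SE 0.54). Ccr7, which takes dendritic cells and T cells to lymphoid tissue, and Ccr6 fell by 3.20 and 2.37. Ccrl2, a receptor that presents ligands without classical signalling, fell by 0.60 (adjusted p = 0.00991). Ccr9 rose by 4.47, and the atypical receptors Ackr1 and Ackr4, which bind chemokines without moving cells, rose by 2.39 and 5.95, the latter by 6.86 without Con replicate 2. Ccr1l1 had 7 counts over Con and 26 over KO and was not tested.

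Markers of several cell types differed between the same libraries. The counts of markers called stand beside 39.6% higher and 42.4% lower among all genes tested. Summed macrophage markers were at 12264 to 19123 CPM in Con and 923 to 1691 CPM in KO, with 6 of 12 genes lower and 6 higher, and the sum is mostly Gpnmb, a lysosomal glycoprotein at 14058 ± 3451 CPM in Con and 8.26 ± 1.49 CPM in KO. Among those higher were Cd163, the hemoglobin scavenger receptor of resident macrophages (0.103 ± 0.0417 to 110.6 ± 33.1 CPM), and the complement gene C1qa (1.25 ± 0.0344 to 210.4 ± 65.1 CPM). Monocyte markers summed to 685 to 875 CPM in Con and 2027 to 2506 CPM in KO, with 5 of 6 higher, late neutrophil markers to 2338 to 2520 and 164849 to 189830 CPM, with 11 of 11 higher, and erythroid markers to 63.7 to 119 and 16819 to 23895 CPM, with 7 of 7 higher. Dendritic cell markers, among them the class II genes, had sums that overlapped, at 671 to 961 CPM in Con and 501 to 892 CPM in KO. Single genes moved apart, with 4 of 10 higher and 5 lower. Siglech went from 0.258 ± 0.111 to 147.4 ± 35.9 CPM, and Ccr7 from 71.3 ± 20.5 to 7.78 ± 2.64 CPM. Promyelocyte and blast markers summed to 690 to 700 and 4137 to 5988 CPM (5 of 6 higher and 1 lower). Basophil, mast cell and eosinophil markers summed to 2143 to 2716 and 1872 to 2035 CPM (4 of 10 higher and 6 lower). This sum joins genes that moved apart. The eosinophil markers Ear1, Ear2, Prg2 and Ccr3 were higher, with Ear2 at 12.5 ± 0.743 CPM in Con and 181.7 ± 8.14 CPM in KO. The basophil and mast cell markers Mcpt8, Cpa3, Ms4a2, Prss34, Il4 and Cma1 were lower, with Cpa3 at 419.1 ± 55.7 and 42.9 ± 9.76 CPM. T and NK cell markers summed to 246 to 416 and 73.3 to 105 CPM (6 of 7 higher and 1, the granzyme gene Gzmb, lower). B cell markers summed to 43.9 to 75.9 and 47.9 to 129.8 CPM (1 of 3 higher), and markers of stroma and endothelium to 380.5 to 385.5 and 315 to 516 CPM (5 of 6 higher and 1 lower). Pecam1, the lower gene, is most of the latter sum in Con. It was at 371.2 ± 5.27 CPM in Con and 79.3 ± 12.7 CPM in KO. Among those higher, Stab2 went from 0.130 ± 0.164 to 58.2 ± 5.08 CPM and Dcn from 1.65 ± 0.512 to 33.2 ± 2.61 CPM. Of all these markers, Ncr1 had no count in Con and none was without a count in KO. The part of these cell types in the fall of the ligand genes was not tested.

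Genes that share a chromosome block with the ligand genes did not all move with them. In the gene order of the RefSeq table, Ccl2 and Ccl7 are followed by Ccl11, which was not analysed here, then Ccl12 and Ccl8, and the log2 fold changes of the measured genes were -7.63, -10.10, -6.17 and 0.36. Ccl5 and Ccl9 are next to each other among protein-coding genes and stood at 1.45 and -2.51. Ccl3 and Ccl4 follow after Ccl6, which was not analysed here, at -3.70 and -4.11, and the next protein-coding gene, Wfdc17, a whey acidic protein family member, rose by 1.05 (SE 0.15, adjusted p = 1.52e-04). Cx3cl1, the ligand of Cx3cr1, lies between Ccl22 and Ccl17, which stood at -9.57 and -7.55, and was at 4.21 ± 0.405 CPM in Con and 3.28 ± 0.582 CPM in KO (-0.36, adjusted p = 0.161). Next to Ccl24, Rhbdd2, a rhomboid family gene, fell by 1.90 and Por, cytochrome P450 oxidoreductase, by 1.06.

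**Figure D4:**
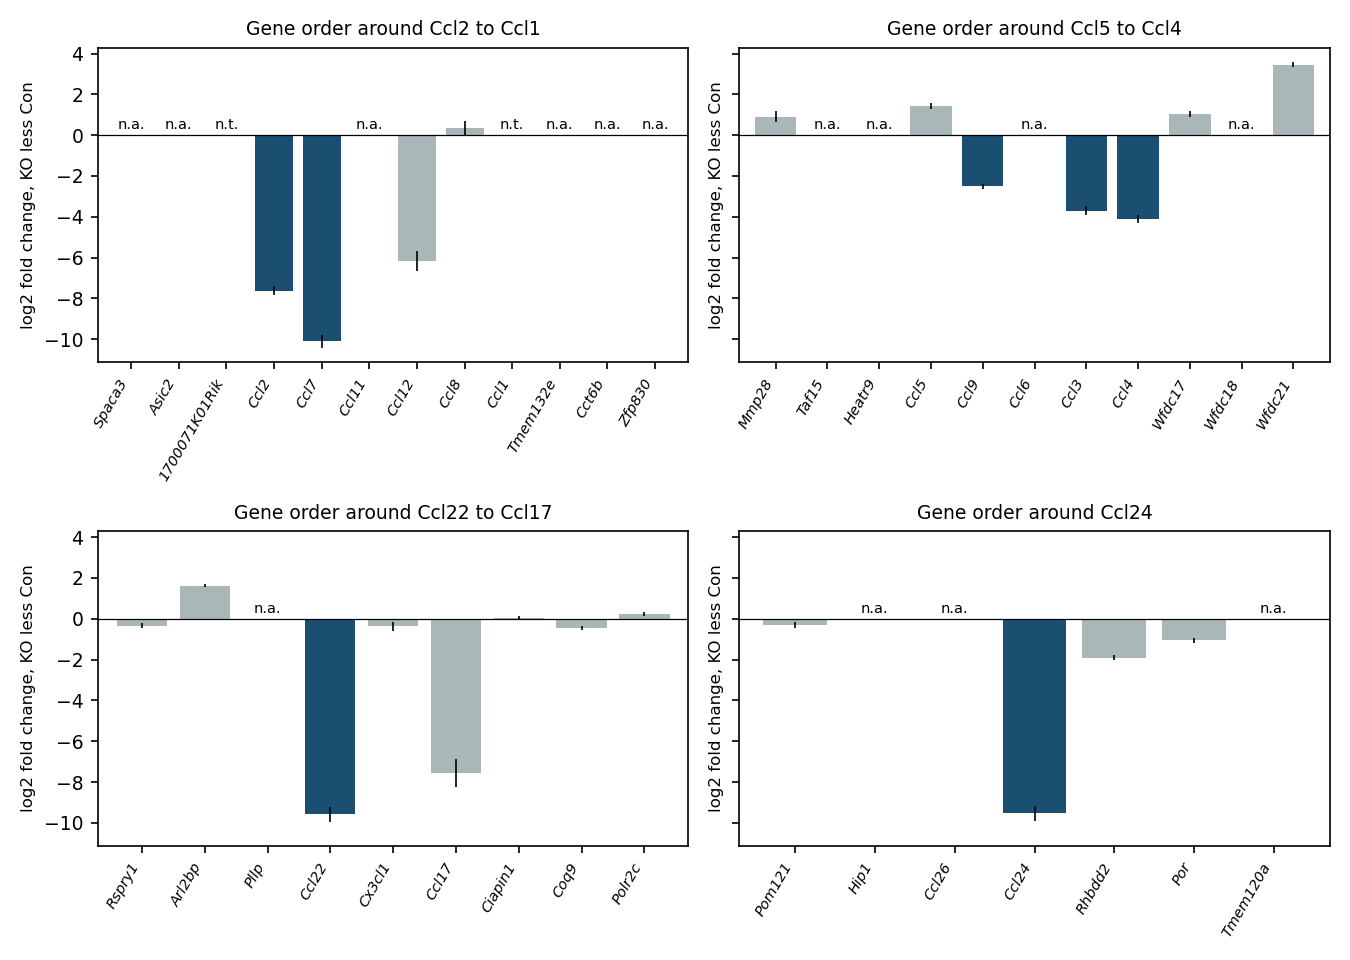
Log2 fold change, KO less Con, of protein-coding genes in the order of the RefSeq table around the ligand genes, with bars for the standard error and positions that show order only, not distance. Dark bars are the 7 genes and grey bars other genes, n.t. marks a gene below the count filter and n.a. one not analysed here. Genes near or above 0 stand next to genes that fell, as Ccl8 (0.36) beside Ccl12 (-6.17), Ccl5 (1.45) beside Ccl9 (-2.51) and Cx3cl1 (-0.36) beside Ccl22 (-9.57).

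Of all genes tested, 82% were called, 42.4% lower and 39.6% higher, with a median log2 fold change of -0.06, and the counts of the following lists stand beside those shares. Of 8 tested cytokine genes known to induce CC ligands, 7 fell and 1, Ifng, rose, with a median of -4.75 that was -6.15 without KO replicate 3. Il1a, interleukin-1 alpha, went from 1012 ± 89.7 to 11.5 ± 1.94 CPM, and the type II cytokine genes Il4 and Il13, which induce Ccl17, Ccl22 and Ccl24 in macrophages, were at 6.84 ± 0.379 and 17.5 ± 5.42 CPM in Con and at 0.0429 ± 0.0743 and 0.252 ± 0.228 CPM in KO. Il4 rests on a single KO count. Csf1, the macrophage growth factor, went from 266.8 ± 1.39 to 40.2 ± 2.05 CPM (-2.73, SE 0.08). Of 22 genes of NF-kB subunits, inhibitors and upstream adaptors, 14 fell and 6 rose, with a median of -0.68 that was -1.04 when only library size was used for scaling. Tnfrsf1b, a receptor of tumor necrosis factor, fell by 3.12 and Il1r1, the interleukin-1 receptor, by 2.46, while the adaptor gene Myd88 rose by 1.37. Of 10 genes of the response to interleukin-4 and Stat6, 5 fell and 4 rose (median -0.36), with Arg1, arginase, at -11.25 and Alox15, a lipoxygenase, at 5.59.

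Lists of factors that act on the messengers, proteins or receptors of chemokines were read beside the same 82% of all genes called. Of 8 genes of AU-rich element and stem-loop decay factors, 6 rose and 2 fell (median 0.48), or 3 rose and 2 fell with library size only (median 0.13). Zfp36, a decay factor of messengers with AU-rich elements, rose from 121.8 ± 7.02 to 2890 ± 554 CPM (4.57, SE 0.16, adjusted p = 1.62e-08), and Zc3h12c, a ribonuclease, fell by 3.44. Of 12 genes of chemokine-processing proteases and clearance, 6 rose and 6 fell. Mmp12, a macrophage elastase that trims CC chemokines, was at -12.41 and Mmp9, a neutrophil gelatinase, at 7.25. Downstream of the receptors, 13 of 20 signalling and desensitization genes rose and 4 fell (median 1.45), among them Rgs2, a brake on G protein signalling (4.34, SE 0.16), and Arrb2, beta-arrestin (2.27, SE 0.10). The CXC, CX3C and XC ligands, the nearest relatives of these genes, numbered 6 lower and 3 higher of 10 tested (median -1.72), with Cxcl3 at -6.17 and Cxcl1 at -5.99. That median was -0.40, -0.37 and -0.42 without Con replicate 1, 2 or 3 and -0.54 without KO replicate 3, where 11 genes were tested, 6 lower and 4 higher. The part of these genes in the fall of the CC ligands was not tested.

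For each ligand gene the 2 genes of nearest pattern were found by the root mean square difference of centred log2 CPM over the 6 libraries, among 7229 genes. The values were centred but not scaled, so nearness largely means a fold change of like size. Ccl9 had the closest matches, Cstb, the protease inhibitor cystatin B (difference 0.057), and Ass1, argininosuccinate synthase (0.066). Those of Ccl3 were Spred3 (0.12) and Scd2, a stearoyl desaturase (0.13), and those of Ccl4 were Slamf7 (0.12) and Smpdl3b (0.16). Ccl2 was nearest to F7, coagulation factor VII (0.27), and Tnip3 (0.31), and Ccl7 to Nos2, inducible nitric oxide synthase (0.46), and Gpnmb (0.69). In KO libraries 1 to 3, F7 had 7, 9 and 4 counts, Tnip3 had 4, 4 and 6, and Nos2 had 11, 4 and 3. Ccl22 and Ccl24 shared both of their nearest genes, Ido2, an indoleamine dioxygenase, and Cyp4a12a, a cytochrome P450, at 0.19 and 0.21 for Ccl22 and 0.31 for each in Ccl24. Neither of these had a count in KO, so the closeness depends on the prior count of 0.25.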

How the data were processed

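Per the labels' protocols, TRIzol RNA went into mRNA libraries (BGI kit). The deposited values are the authors' estimated counts for each gene without scaling, per the file headers, and 1449 of 9295 genes hold a value that is not a whole number. No such value is among the 7 genes (0 values). Which aligner and counter were used is not given in the sources used here. A human build, GRCh38, is listed in the submitters' processing notes, but the IDs and symbols are mouse ones, so coordinates printed belong to the reference sequences (RefSeq GRCm38.p6 and GENCODE M21), not to the counts. Of the IDs, 9257 matched the RefSeq table. Columns were matched to libraries by name, and 0 were left unused.

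Counts were rounded and fitted in R 4.3.3 by the robust quasi-likelihood test of edgeR 4.0.16, with TMM factors and filterByExpr by group, two-sided and with no covariate. P-values were adjusted by Benjamini-Hochberg over the 8358 genes tested, threshold 0.05. CPM are counts over library total times TMM factor, from totals of 8875022 to 11436216 counts. Errors are SD over 3 libraries. Fold ratios are of summed counts with exact 95% intervals, which cover counting error only because no molecular identifiers mark separate molecules. Fits were tested on simulated counts with fewer and smaller changes than in these data, so that test does not check the scaling used here. Alternatives used DESeq2 1.42.0, limma 3.58.1 (voom), other scalings and filters, a replicate block, and left-out libraries.

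The 7 genes and the lists were chosen with earlier results of these data known. Names follow a rule: the 7 genes, every CC ligand and receptor in the table, the 4 genes of smallest adjusted p in each list, Papola, and the 2 genes of nearest pattern (mean log2 CPM of at least 2). Chromosome neighbours, Kit, Hoxa9, Ifng, further basophil, mast cell and eosinophil markers and the pentamer search were added after values were seen. A receptor gene of the list and a sequence are not reported here.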

Additional observations from a re-analysis of the deposited data

How the results depend on the processing

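All 7 ligand genes kept their direction and their call in all 112 combinations of gene and alternative run (DESeq2, limma-voom, other scalings and filters, the replicate block, Con replicates 2 and 3 summed, and each library left out). The highest adjusted p among them was 2.33e-05, for Ccl3. With Con replicates 2 and 3 summed as 1 sample, the log2 fold changes ran from -10.00 (Ccl7) to -2.47 (Ccl9). Library size as the only scaling moved the median of all log2 fold changes by -0.35 and gave 2488 higher and 4476 lower genes in place of 3310 and 3544. It also moved the log2 ratio of the summed 7 genes from -4.04 to -4.39, and the changed decay factor genes from 8 to 5. The labels do not say that a replicate number marks a shared source. The replicate block, fitted although the correlations of same-numbered samples were -0.00166, 0.0277 and -0.00374, gave 6766 changed genes in place of 6854 and all 7 ligand genes lower, and changed no call among the CC ligands and receptors. With 1 library left out, the difference in change between Ccl22 and Ccl24 ran from -0.44 (without KO replicate 2) to 0.18 (without KO replicate 3), against -0.11 with all, and the log2 fold change of Ccl8 from -0.21 (without KO replicate 2) to 0.62 (without KO replicate 3), against 0.36. That of Papola was -0.13 with library size only, and its adjusted p was 0.0614 to 0.0814 without any 1 library other than KO replicate 3. The cause was not tested. Counts of 1 to 8 in a KO library limit Ccl7, Ccl22 and Ccl24.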
